A study of Mus musculus with 16 samples.

Results

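Klf2 and 5 genes of lymphocyte homing and egress, S1pr1, S1pr4, S1pr5, Ccr7 and Cd44, were examined in CD8 T cells from the spleens of mice carrying chronic lymphocytic leukaemia. The 6 genes were chosen by name, with earlier results of these data known, so their counts beside those of all genes are descriptions. Each was read by 1 probe set assigned to that gene alone, and they are 6 of the 22180 genes tested. Arrays were run on 16 samples in 4 groups of 4. The mice were female chimeras of the strain labelled C56BL/6 whose transplanted bone marrow was wild-type (WT) or lacked Il4i1 (knockout, KO). Il4i1 encodes a secreted enzyme that degrades amino acids. Every mouse, WT chimeras included, then received leukaemia cells from Eµ-TCL1 mice, a model of chronic lymphocytic leukaemia, so no group was free of leukaemia. RNA was taken 5 weeks after this transplantation from memory cells, sorted as CD44 high and CD127 high, and from effector cells, sorted as CD44 positive and CD127 negative. The labels do not say which cells of a KO chimera still made the enzyme, and a change within the sorted cells cannot be told apart from one set by the cells around them. Il4i1 has no probe set of its own here, and its RNA was not used to check the genotype labels.

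KLF2 is a transcription factor of quiescent T cells that switches on the genes for leaving and entering lymphoid organs, S1pr1 above all. S1PR1, S1PR4 and S1PR5 are receptors for sphingosine 1-phosphate (S1P), a lipid abundant in blood and lymph; S1PR1 draws T cells out of lymphoid tissue, and S1PR5 is best known for the egress of natural killer (NK) cells. CCR7 guides naive and central memory T cells into lymph nodes, and CD44 is a hyaluronan receptor that rises on T cells after they meet antigen and was itself one of the sort markers. Activated T cells lose KLF2, S1PR1 and CCR7, and CD69 holds S1PR1 inside the cell.

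The DNA just upstream of a gene is where such control is read. The RefSeq promoter table of build GRCm38.p6 holds 4 of the 6 genes, Klf2, S1pr4, S1pr5 and Cd44. The upstream 250 bases of Klf2 (chr8:72318812-72319061, plus strand) and S1pr5 (chr9:21248444-21248693, minus strand) are shown because these genes had the widest genotype differences among the 4. Both are written 5′ to 3′ in the direction of the gene. Capitals mark matches on either strand to CACCC, the core of the sites that Kruppel-like factors bind, and in Klf2 also to the MEF2 motif, bound by the factors through which ERK5 signalling raises KLF2.
Klf2: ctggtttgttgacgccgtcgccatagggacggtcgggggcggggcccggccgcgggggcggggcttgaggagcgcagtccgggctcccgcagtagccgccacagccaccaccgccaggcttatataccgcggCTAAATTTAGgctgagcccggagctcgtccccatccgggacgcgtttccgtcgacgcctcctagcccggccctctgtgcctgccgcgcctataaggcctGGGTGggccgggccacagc
S1pr5: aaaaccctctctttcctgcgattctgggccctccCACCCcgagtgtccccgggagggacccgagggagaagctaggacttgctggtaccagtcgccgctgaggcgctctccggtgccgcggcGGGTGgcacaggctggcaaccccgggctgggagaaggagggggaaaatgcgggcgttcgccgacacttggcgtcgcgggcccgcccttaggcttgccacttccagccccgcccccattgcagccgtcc
The MEF2 match of Klf2 lay 118 to 109 bases before the start of the gene, and the same motif occurred in 0.508% of 32851 mouse promoters of this length. Its CACCC match lay at 19 to 15 bases before the start, on the minus strand. S1pr5 had CACCC matches at 216 to 212 and at 128 to 124 bases before its start, S1pr4 had 1 at 107 to 103 bases, and Cd44 had 0. CACCC was present in 52% of all promoters. TGTTTAC, the site of FOXO factors, and GGTGTG, the core of T-box sites, were found in 3.17% and 16.3% of all promoters and in 0 of these 4. A match of letters is no evidence of binding.

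In effector cells, Klf2 and S1pr1 had higher levels on every KO array than on any WT array, by 1.07 ± 0.24 and 1.09 ± 0.21 on the log2 scale (SE, n = 4 against 4), a fold of 2.10 and 2.14. Neither passed the test across all genes, nor did the smaller differences of both genes in memory cells. Between the subsets, the effector cells of WT chimeras had lower Klf2, S1pr1, Ccr7 and Cd44 than the memory cells, and S1pr4 and S1pr5 did not pass. In KO chimeras S1pr1, Ccr7 and Cd44 were again lower in effector cells, while Klf2 missed the threshold.

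Values below are log2 expression as deposited, so 1 unit is a doubling, and the levels of different genes are not set against each other. All 6 genes lay above the median of their array on 16 of 16 arrays, but that median is not a measured limit of detection. S1pr5 lay only 0.34 to 0.81 above it in effector WT, and Ccr7 came as close as 0.55 in effector KO. Differences were tested with limma over all genes, with Benjamini-Hochberg adjusted p-values and a threshold of 0.05. Nothing in the labels says that samples came from different mice, so the p-values reflect only how far these samples spread. In these bulk samples, fewer cells that express a gene and less RNA per cell cannot be told apart. The CD8 T cell genes were high in every group, with group means of Cd8a between 9.84 and 10.21 and of Cd8b1 between 11.51 and 11.77. Array effector KO 4 stood somewhat apart, with correlations over genes of 0.965 to 0.974 to the other arrays, against 0.971 to 0.994 among those.

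Klf2 measured 6.95, 6.37, 6.65 and 7.87 on the arrays effector KO 1 to 4. The effector WT arrays gave 5.67, 5.64, 6.23 and 6.03. The lowest KO array thus lay above the highest WT array, and effector KO 4 was the highest of the 8. Memory KO arrays read 7.98, 7.60, 7.58 and 7.94, and memory WT arrays 7.41, 7.04, 7.26 and 7.40, again without overlap. In order of group mean, Klf2 stood at 5.89 ± 0.29 in effector WT, 6.96 ± 0.65 in effector KO, 7.28 ± 0.17 in memory WT and 7.78 ± 0.22 in memory KO (SD, n = 4). Effector KO and memory WT, neighbours in that order, overlapped.

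S1pr1, the main egress receptor of T cells, was ordered in the same way. Its values were 8.73, 8.45, 8.37 and 9.43 in effector KO and 7.55, 7.29, 8.04 and 7.71 in effector WT. All 4 KO arrays exceeded all 4 WT arrays. In memory cells the KO arrays gave 10.26, 10.16, 9.84 and 10.30 and the WT arrays 9.88, 9.27, 9.77 and 9.78. Here memory KO 3 fell below memory WT 1, so the groups overlapped, and effector KO 4 in turn exceeded the lowest memory WT array.

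**Figure D1:**
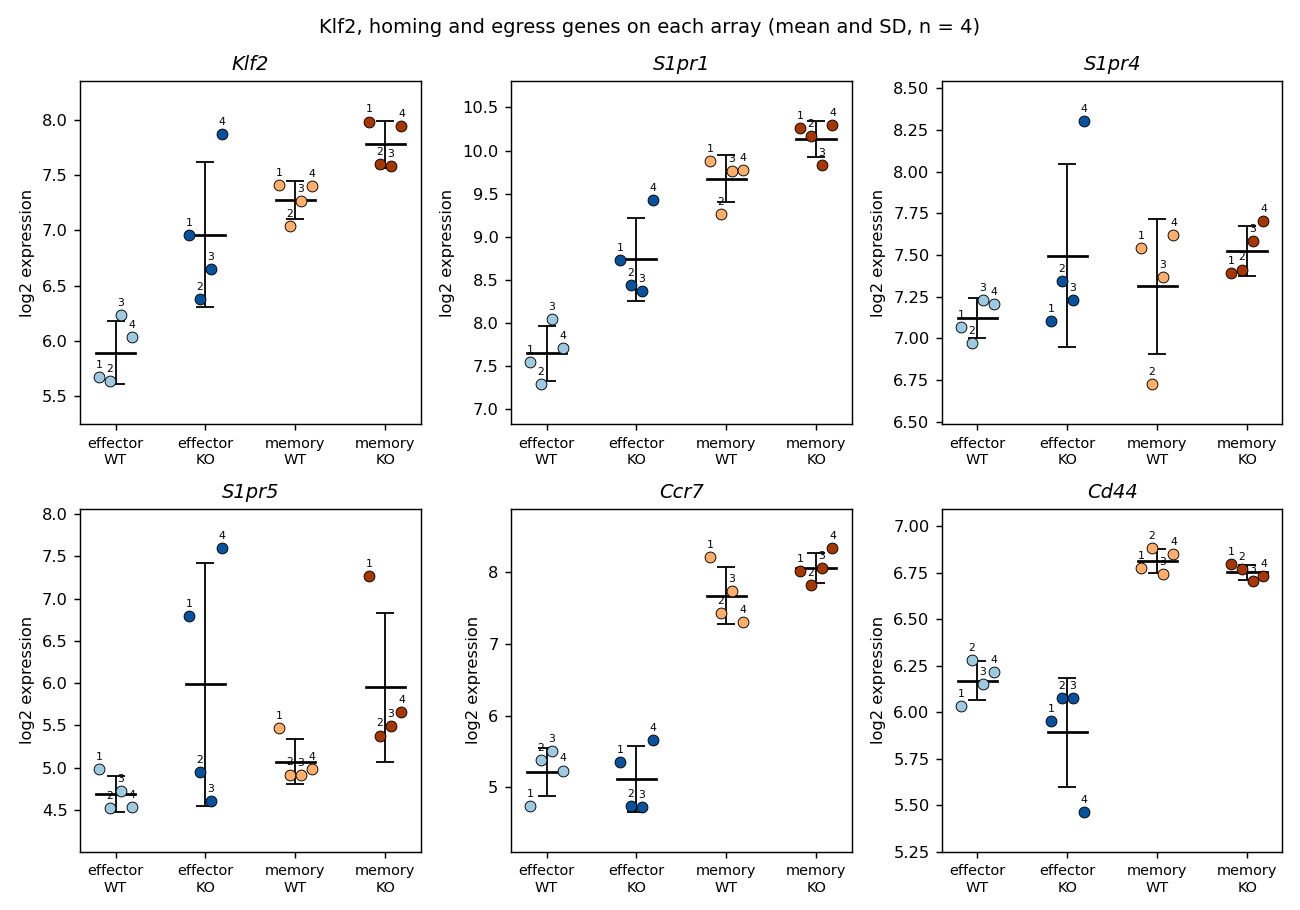
Log2 expression (y axis, its own scale in each panel) of Klf2, S1pr1, S1pr4, S1pr5, Ccr7 and Cd44 on each of the 16 arrays, by group (x axis); points carry the replicate number, and bars give the mean and SD of 4 arrays. Klf2 and S1pr1 climb from effector WT to memory KO, Ccr7 and Cd44 split by subset, and S1pr5 is high on effector KO 1 and 4 and memory KO 1.

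The knockout difference in effector cells was then tested for all genes. limma gave Klf2 an adjusted p of 0.259 (95% confidence interval of the log2 difference 0.56 to 1.58) and S1pr1 an adjusted p of 0.119 (0.64 to 1.55). With limma, 0 of the 6 genes passed after Benjamini-Hochberg adjustment, where 0.0541% of all genes did (12 of 22180), and at an unadjusted p under 0.05 there were 4 of the 6 and 2067 genes in all. Groups did not overlap for 2 of the 6, Klf2 and S1pr1, against 4.65% of all genes. The median difference of the 6 genes was 0.72, with 4 higher in KO and 2 lower, and the median over all genes was 0.01. Single arrays mattered here: without effector KO 4 the differences became 0.76 for Klf2 and 0.87 for S1pr1, and without effector KO 2 Klf2 reached an adjusted p of 0.0442. With the replicate number as a block, S1pr1 reached 0.0444.

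In memory cells the differences of Klf2, 0.50 ± 0.24 (adjusted p 0.453, interval −0.01 to 1.01), and S1pr1, 0.47 ± 0.21 (adjusted p 0.430, interval 0.01 to 0.92), did not pass. Of the 6 genes, limma called 0, against 0.113% of all genes (25 of 22180), and at an unadjusted p under 0.05 it gave 1 of the 6, S1pr1, and 2500 genes in all. Klf2 alone among the 6 had groups without overlap, as had 6.49% of all genes. Members were higher in memory KO in 5 of 6 cases, with a median of 0.42 against 0.02 over all genes.

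Whether the genotype difference itself differed between the subsets was tested as an interaction. It was 0.57 ± 0.34 for Klf2 (limma adjusted p 0.856, interval −0.15 to 1.29) and 0.63 ± 0.30 for S1pr1 (adjusted p 0.841, interval −0.01 to 1.27). No difference between effector and memory cells in the response to the knockout was therefore detected, and the intervals reach from about none to more than a doubling. limma called 0 of the 6 genes and 0% of all 22180, with 0 of the 6 and 1296 genes at an unadjusted p under 0.05.

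S1pr5 had the widest spread of the 6 genes within both KO groups, with an SD of 1.44 in effector KO and 0.89 in memory KO, but not within the WT groups. It measured 6.79, 4.95, 4.60 and 7.60 on the arrays effector KO 1 to 4, against 4.98, 4.52, 4.72 and 4.54 in effector WT. Only effector KO 1 and 4 stood above the WT arrays. Memory KO arrays gave 7.27, 5.38, 5.49 and 5.66 and memory WT arrays 5.46, 4.92, 4.91 and 4.98. Memory KO 1 was thus far above the other 3 of its group, and array 1 was also the highest in effector WT and in memory WT. The KO differences were 1.30 ± 0.53 in effector cells (limma adjusted p 0.501) and 0.88 ± 0.53 in memory cells (adjusted p 0.569). They rested largely on single arrays: the effector difference was 0.76 without effector KO 4, and the memory difference 0.44 without memory KO 1.

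S1pr4, the S1P receptor found mainly on blood and lymphoid cells, differed little between groups. Effector KO arrays read 7.10, 7.35, 7.23 and 8.31 and effector WT arrays 7.07, 6.97, 7.23 and 7.20. The 2 groups overlapped, and effector KO 4 stood above the rest. Memory KO arrays gave 7.39, 7.41, 7.58 and 7.71 and memory WT arrays 7.54, 6.72, 7.36 and 7.62, which overlapped. The KO difference was 0.38 ± 0.23 in effector cells (limma adjusted p 0.617), 0.11 without effector KO 4, and 0.21 ± 0.23 in memory cells (adjusted p 0.785).

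Ccr7 separated the subsets and not the genotypes. The effector KO arrays gave 5.34, 4.73, 4.72 and 5.66 and the effector WT arrays 4.74, 5.38, 5.50 and 5.23. Those of memory KO gave 8.01, 7.82, 8.06 and 8.34 and those of memory WT 8.21, 7.43, 7.74 and 7.31. All 8 memory arrays lay far above all 8 effector arrays, while KO and WT overlapped in both subsets. The KO difference was −0.10 ± 0.23 in effector cells (limma adjusted p 0.913, interval −0.59 to 0.39) and 0.38 ± 0.23 in memory cells (adjusted p 0.571, interval −0.11 to 0.87).

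Cd44 RNA was higher in the memory cells, whose gate asked for high CD44 protein. It stood at 5.95, 6.08, 6.08 and 5.46 in effector KO and at 6.03, 6.28, 6.15 and 6.22 in effector WT. Memory KO had 6.80, 6.77, 6.70 and 6.73 and memory WT 6.78, 6.88, 6.74 and 6.85. The memory arrays formed a narrow band above every effector array, and effector KO 4 was the lowest of all 16. The KO difference was −0.28 ± 0.12 in effector cells (limma adjusted p 0.518), −0.13 without effector KO 4, and −0.06 ± 0.12 in memory cells (adjusted p 0.901).

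**Figure D2:**
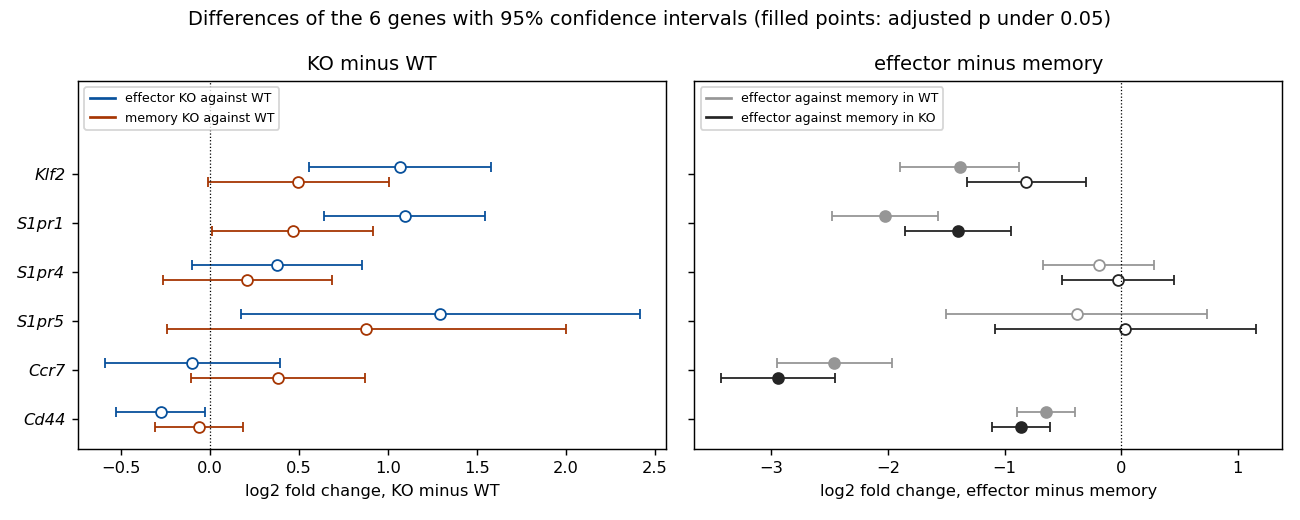
Log2 fold changes (x axis) of the 6 genes (y axis) with 95% confidence intervals, for KO minus WT in each subset (left) and effector minus memory in each genotype (right); filled points had a limma adjusted p under 0.05. No KO difference is filled; Ccr7, S1pr1 and Cd44 are filled in both genotypes on the right, and Klf2 in WT alone, where the KO point missed the threshold at 0.0507.

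Effector and memory cells of WT chimeras differed in 4 of the 6 genes. Ccr7 was 5.50-fold lower in effector cells (−2.46 ± 0.23, limma adjusted p 2.285e-05), S1pr1 4.07-fold (−2.02 ± 0.21, adjusted p 6.204e-05), Klf2 2.61-fold (−1.38 ± 0.24, adjusted p 0.00367) and Cd44 1.56-fold (−0.64 ± 0.12, adjusted p 0.00521). S1pr5 (−0.38 ± 0.53, adjusted p 0.847) and S1pr4 (−0.19 ± 0.23, adjusted p 0.806) did not pass. Of all genes, 3.22% passed and 2.3% passed as lower in effector cells. The groups of the same 4 genes did not overlap, as was so for 13.2% of all genes. CD44 was a gating marker, so the Cd44 difference lies between groups that were sorted on its protein.

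In KO chimeras the subsets differed in 3 of the 6 genes, all lower in effector cells. Ccr7 was 7.69-fold lower (−2.94 ± 0.23, limma adjusted p 3.354e-06), S1pr1 2.63-fold (−1.40 ± 0.21, adjusted p 0.000804) and Cd44 1.81-fold (−0.86 ± 0.12, adjusted p 0.000335). These 3 genes also had groups without overlap, against 10.2% of all genes, while 7.43% of all genes passed and 4.3% passed as lower. Klf2 gave −0.81 ± 0.24 (interval −1.33 to −0.30) with an adjusted p of 0.0507, and its groups overlapped because effector KO 4 read above memory KO 2 and 3. Without effector KO 4 it was −1.12 with a limma adjusted p of 0.000775, and with genotype and replicate number together as the block it passed at 0.0186. It passed in 7 of 24 other settings in all. S1pr4 (−0.03 ± 0.23) and S1pr5 (0.03 ± 0.53) did not pass. That Klf2 passed in WT and not in KO does not show a difference between the genotypes: the interaction above is that test, and it did not pass.

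Klf2 and S1pr1 rose and fell together from array to array within a subset. Over the 8 effector arrays their Pearson correlation was 0.98, 0.96 without effector KO 4, and over the 8 memory arrays 0.93. These arrays share the 2 genotypes, so the correlations hold the genotype difference as well as the spread within groups, and they are descriptions. Klf2 with S1pr5 gave 0.86 and 0.79 in effector and memory arrays, and 0.64 in effector arrays without effector KO 4. Its correlation with S1pr4 was 0.84 and 0.62, but 0.47 without that array. Cd44 ran the other way, at −0.88 against Klf2 in effector and −0.47 in memory arrays. Ccr7 followed Klf2 less closely, at 0.41 in effector arrays, −0.02 without effector KO 4, and 0.66 in memory arrays.

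**Figure D3:**
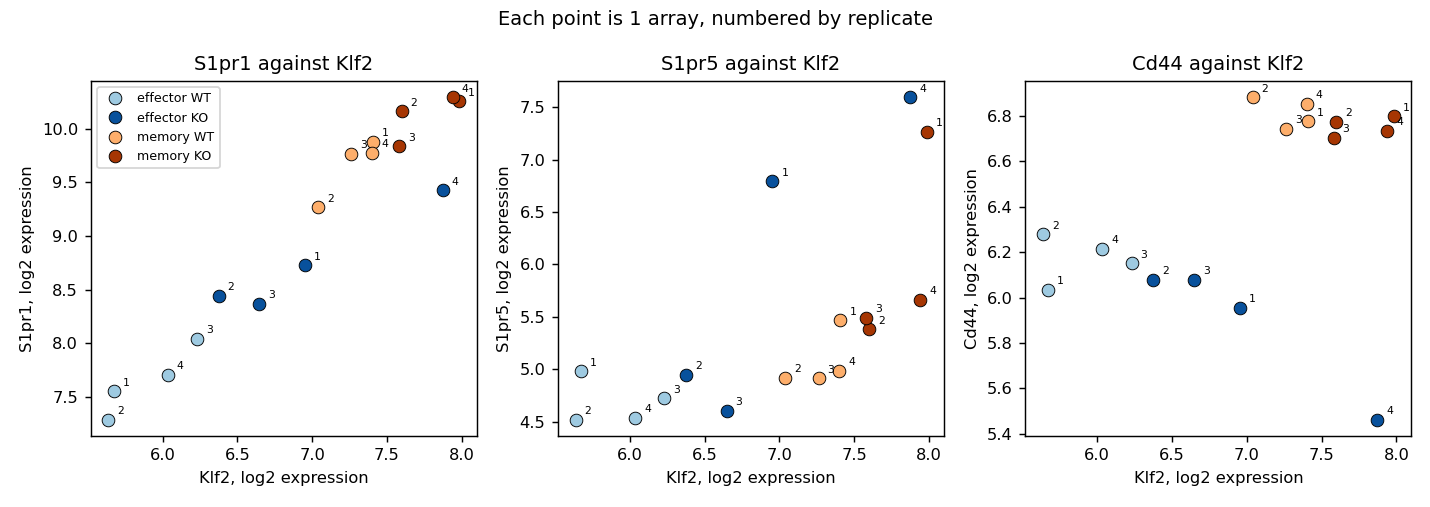
Log2 expression of S1pr1, S1pr5 and Cd44 (y axes) against that of Klf2 (x axes), 1 point per array, coloured by group and numbered by replicate. S1pr1 runs along a line with Klf2 within the effector and within the memory arrays; S1pr5 is at 6.79 or above on effector KO 1 and 4 and memory KO 1 and at 5.66 or below on the other arrays; Cd44 forms separate bands for memory and effector cells.

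Among all other genes, those most like a member were taken by the lower of the 2 correlations within effector and within memory arrays, each over 8 arrays. Klf2 was matched most closely by Cd69 (0.96 in effector and 0.97 in memory arrays), Sidt1 (0.96 and 0.96) and Csnk1g2 (0.95 and 0.99). For S1pr1 the nearest were Pdlim1 (0.99 and 0.95), Klhl6 (0.98 and 0.95) and again Sidt1 (0.95 and 0.94). S1pr5 was nearest to As3mt (0.97 and 0.95), Stx1a (0.96 and 0.91) and Brpf3 (0.92 and 0.92). S1pr4 had Emb (0.94 and 0.90), and Cd44 had Anapc1 (0.97 and 0.95). Among the genes kept, Ccr7 had none as close, with Slc19a2 at 0.83 and 0.95.

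Cd69, whose product opposes S1PR1, was thus higher where Klf2 was higher. It read 9.21, 8.68, 8.82 and 9.49 in effector KO and 8.40, 8.12, 8.43 and 8.34 in effector WT, without overlap. Memory KO arrays gave 9.61, 9.30, 9.26 and 9.57 and memory WT arrays 9.08, 8.60, 8.96 and 9.24, also without overlap. The KO differences, 0.72 ± 0.17 in effector cells (limma adjusted p 0.285) and 0.46 ± 0.17 in memory cells (adjusted p 0.311), did not pass. With the replicate number as a block, the effector difference reached an adjusted p of 0.0283. Effector cells had less Cd69 than memory cells in WT (−0.65 ± 0.17, adjusted p 0.0470), a call lost in 12 of 24 other settings, and in KO the difference was −0.39 ± 0.17 (adjusted p 0.203).

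Il7r, which encodes the gating marker CD127, differed between genotypes in effector cells. It read 6.60, 5.43, 5.00 and 5.75 in effector KO and 3.83, 3.85, 4.02 and 4.46 in effector WT. The KO level was higher by 1.65 ± 0.25 (limma adjusted p 0.0183), a call lost in 5 of 24 other settings. Without effector KO 4 the difference was 1.63 (limma adjusted p 0.0642), and fitting only the arrays compared gave an adjusted p of 0.445. Arrays effector WT 1, 2 and 3 had Il7r below their array median. The effector KO arrays remained far from memory levels, whose group means were 11.08 in KO and 10.71 in WT. Il7r, Klf2 and S1pr1 were all higher in memory than in effector cells of WT chimeras and all had effector KO arrays above effector WT arrays. Of the other genes higher in memory cells of WT chimeras, only some are given here. These went either way between effector KO and WT, none past the threshold. Ccr7, with the widest subset difference of the 6 in WT, differed by −0.10 and Cd44 by −0.28. The positioning receptor gene Gpr183 differed by 0.42 and the integrin gene Itgb7 by 0.36. The transcription factor genes Tbx21 and Foxp1 differed by 0.77 and 0.13, and Cd69 by 0.72. Whether memory cells within the effector KO sort, or the placing of the gate, had a part in the Klf2 and S1pr1 values was not tested.

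**Figure D4:**
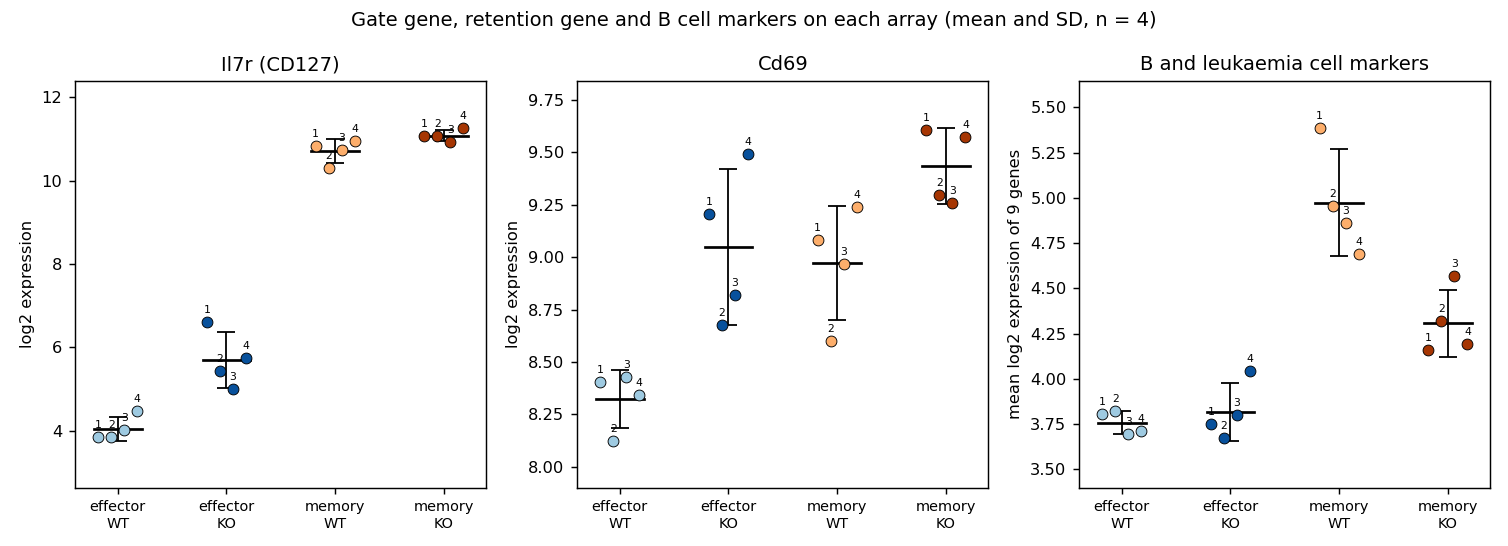
Log2 expression of Il7r and Cd69 and the mean log2 expression of 9 B and leukaemia cell markers (y axes) on each array, by group (x axes), with the mean and SD of 4 arrays and the replicate numbers. Il7r is higher on all effector KO than effector WT arrays yet far under the memory arrays; the B cell markers are at 4.69 to 5.39 in memory WT and 4.16 to 4.57 in memory KO.

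Genes of other cells were read beside these results, since B cells and leukaemia cells also express Klf2, S1pr1, Ccr7 and Cd44. Of 9 B and leukaemia cell markers, 3 lay above the array median on most of the 16 arrays. In memory WT, Ms4a1, Cd79a, Cd79b, Pax5, Cd22 and Blk lay above it on 4 of 4 arrays and Ebf1 on 3. In effector WT, Cd79b did so on 4 of 4 arrays, Cd22 on 2 and the rest on 0. The mean level of the 9 ran from 3.67 to 4.04 in effector KO and 3.70 to 3.82 in effector WT. It ran from 4.16 to 4.57 in memory KO and 4.69 to 5.39 in memory WT. In effector against memory cells, 7 of 9 passed as lower in WT, Ms4a1 (−2.24) and Cd79a (−1.99) among them, against 2.3% of all genes. In KO 1 of 9, Cd79b (−1.10), passed as lower, against 4.3% of all genes. Between memory KO and WT all 9 had lower means in KO, while Klf2 and S1pr1 had higher means in KO there. Of the 9, 1 passed, Cd22 (−1.04, limma adjusted p 0.0145, lost in 3 of 24 other settings), against 0.113% of all genes. Effector KO and WT had 0 of 9 called. The part of B cell RNA in the subset differences or in the genotype differences was not tested.

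NK cell markers had list means of 6.12 to 6.41 in effector KO, 6.21 to 6.53 in effector WT, 6.29 to 6.82 in memory KO and 6.27 to 6.58 in memory WT, and 0 of 6 passed between genotypes. In KO, Klrb1c was lower in effector than in memory cells (−1.89, limma adjusted p 0.00974) and Eomes was higher. Myeloid markers had means of 4.91 to 5.22 and 4.99 to 5.07 in effector KO and WT and 4.85 to 5.89 and 5.16 to 5.80 in memory KO and WT, and 0 of 9 passed between genotypes. Between subsets, 2 of 9 passed in each genotype, where 3.22% of all genes passed in WT and 7.43% in KO. Lyz2 (−1.35) and Csf1r (−0.99) were lower in effector cells in WT. In KO Csf1r was lower (−1.03) and Cd68 higher (0.74, limma adjusted p 0.0372). The list means of CD4 T cell markers lay between 4.59 and 5.05 on all arrays. Of these 5 genes 1 passed, Il2ra, lower in WT effector than in WT memory cells (−0.65, limma adjusted p 0.0447), where 3.22% of all genes passed. The list means of endothelial and stromal markers lay between 4.84 and 5.33, and the gene Pecam1 was lower in effector cells in both genotypes (−1.30 and −1.58). Their part in the results was not tested either.

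Around the 6 genes, 7 lists held 60 further genes of S1P handling, S1P receptor signalling, KLF2 control, the KLF family, S1pr5 control, lymph node entry and CD44 function, and 52 of them were measured; the others were not analysed here. Between KO and WT, limma called 0 of 52 in effector cells, 0 in memory cells and 0 for the interaction. Effector cells differed from memory cells in 6 of 52 in WT (1 higher and 5 lower, 11.5%, against 3.22% of all genes). In KO they differed in 9 of 52 (3 higher and 6 lower, 17.3%, against 7.43% of all genes). The lists were also chosen with earlier results of these data known, so these shares are descriptions.

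Of 10 genes that make, break down, export or otherwise sense S1P, among them the receptors S1pr2 and S1pr3, the kinases Sphk1 and Sphk2, the lyase Sgpl1 and the exporters Spns2 and Mfsd2b, 0 passed in any of the 5 comparisons. The smallest adjusted p between genotypes was that of Sphk2 in memory cells (0.57 ± 0.14, limma adjusted p 0.139). S1pr3 was under the array median on every array. Of 6 genes of receptor signalling and retention, Cd69 alone passed, in WT effector against memory cells, where 3.22% of all genes passed. The G protein subunit gene Gnai2 differed by 0.02 and 0.03 between genotypes in the 2 subsets.

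Of 10 genes that raise or lower KLF2, the forkhead factor gene Foxp1, which restrains activation of resting T cells, was lower in effector than in memory cells in WT (−0.79 ± 0.14, limma adjusted p 0.00461) and KO (−1.13 ± 0.14, adjusted p 0.000183). Foxo1, whose product activates Klf2, was lower in KO (−0.36 ± 0.10, adjusted p 0.0324, lost in 6 of 24 other settings) and gave −0.26 ± 0.10 in WT (adjusted p 0.202). Between genotypes Foxo1 differed by 0.15 in effector and 0.25 in memory cells, neither past the threshold.

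Klf2 had 6 measured relatives, Klf3, Klf4, Klf6, Klf7, Klf10 and Klf13. All 6 had higher means in effector KO than in effector WT and 5 of 6 in memory KO than in memory WT, with medians of 0.16 and 0.21, and 0 passed. The widest were Klf3 (0.82 ± 0.29, limma adjusted p 0.468) and Klf7 (0.52 ± 0.19, adjusted p 0.468) in effector cells. Between subsets, Klf10 ran against Klf2 and was higher in effector cells in WT (0.45 ± 0.11, adjusted p 0.0395) and KO (0.45 ± 0.11, adjusted p 0.0228), lost in 8 and 4 of 24 other settings. Klf6 was lower in KO effector cells (−0.58 ± 0.17, adjusted p 0.0479, lost in 14 of 24 other settings).

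S1pr5 is known to depend on the T-box factor T-bet, encoded by Tbx21. Tbx21 was lower in effector than in memory cells in WT (−1.27 ± 0.29, limma adjusted p 0.0202) and KO (−1.10 ± 0.29, adjusted p 0.0270), each lost in 5 of 24 other settings. S1pr5 did not pass in either. On the arrays effector KO 1 to 4 Tbx21 read 7.94, 7.07, 6.97 and 8.76, highest on arrays 1 and 4, as S1pr5 was. Memory KO 1 to 4 gave 8.97, 8.68, 8.37 and 9.11, highest on array 4, whereas S1pr5 was highest on array 1. Eomes, the related factor, was higher in KO effector cells (0.55, adjusted p 0.00204). The genotype difference of Tbx21 was 0.77 ± 0.29 in effector cells (adjusted p 0.472) and 0.60 ± 0.29 in memory cells (adjusted p 0.447), neither of which passed.

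Of 8 genes of lymph node entry and lymphoid positioning, 2 passed as lower in effector cells in both genotypes. Among all genes, 2.3% did so in WT and 4.3% in KO. Gpr183, the oxysterol receptor that positions lymphocytes within lymphoid organs, gave −1.79 ± 0.19 in WT (limma adjusted p 7.067e-05) and −1.49 ± 0.19 in KO (adjusted p 0.000237). Itgb7, an integrin chain used for homing to gut and its lymphoid tissue, gave −0.57 ± 0.15 in WT (adjusted p 0.0445) and −0.56 ± 0.15 in KO (adjusted p 0.0293), lost in 10 and 6 of 24 other settings. Of 10 CD44 partners, which link it to the cytoskeleton or make, cut or bind hyaluronan, 1 passed, near the 7.43% of all genes called between subsets in KO. Hmmr, a hyaluronan-binding protein gene known for its part in cell division, was higher in KO effector than in KO memory cells (1.36, limma adjusted p 0.00631). That call was lost in 1 of 24 other settings.

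**Figure D5:**
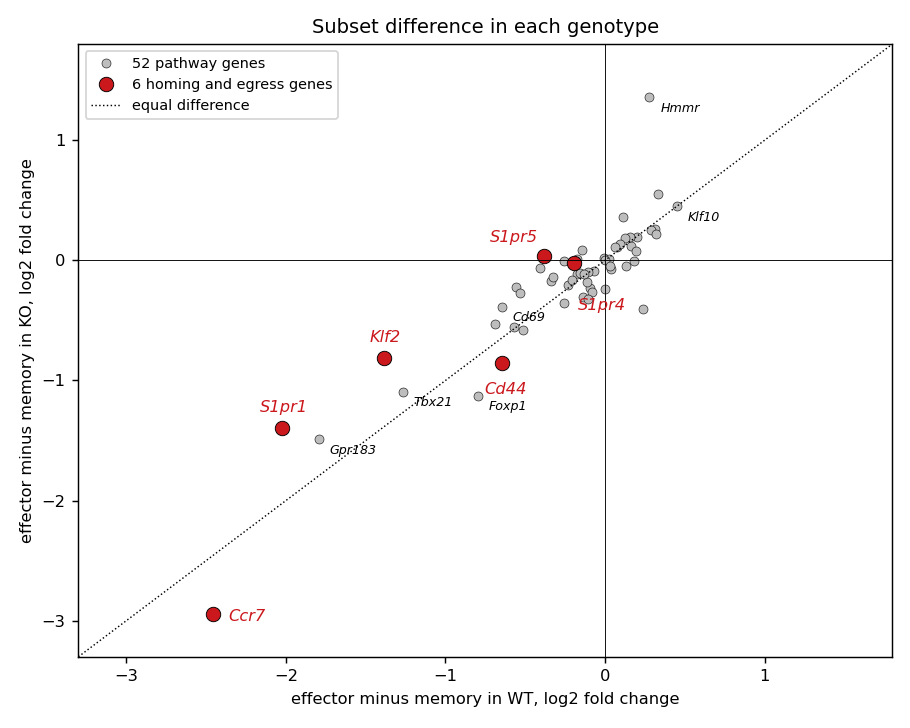
Effector minus memory log2 fold change in KO (y axis) against that in WT (x axis) for the 6 genes (red) and 52 pathway genes (grey); the dotted line marks equal differences, and the genotypes share no arrays. Ccr7, S1pr1, Klf2 and Cd44 lie to the lower left with Gpr183, Tbx21 and Foxp1, while S1pr4 and S1pr5 lie near 0 with most of the pathway genes.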

How the data were processed

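RNA was extracted with the RNeasy Micro Kit, and 1 ng was amplified and biotin-labelled (GeneChip WT Pico kit), per the labels' protocols. The deposited table gives 41345 probe sets on 16 arrays as log2 expression made by the authors. Their log base and normalization method are not stated in the labels or headers; the base was inferred from the values, 0.7365 to 14.0453. Of the probe sets, 23521 carried 1 gene symbol and were used; 1814 carried several and 16010 were not listed. For 1082 genes with several probe sets, the highest mean was taken, leaving 22180 genes, with no filter on dim ones. A linear model with a mean for each group was fitted to all arrays with limma 3.58.1 (R 4.3.3; 12 residual degrees of freedom, prior 4.23), with Benjamini-Hochberg adjustment over all genes, two-sided, and a threshold of 0.05. The steps were tested on simulated data.

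The 6 genes are named throughout, other lists by counts and up to 4 genes with the smallest p, and genes alike by correlation. Members and lists were chosen with earlier results of these data known. Alternatives left out each array in turn, added a replicate block, fitted only the arrays compared, changed normalization, filter, array weights, probe set choice or the eBayes prior. In KO against WT the block was the replicate number, shared by both genotypes. For the subset comparisons and the interaction it was the genotype and number together. The labels give no batch. The number of arrays limits the precision.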

Additional observations from a re-analysis of the deposited data

Results flagged for a closer look

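S1pr5 had 1 array far above the rest in both memory groups. In memory KO, array 1 read 7.27 and the other 3 lay between 5.38 and 5.66, a gap of 0.8508 of the whole range of the group. In memory WT, array 1 read 5.46 and the other 3 lay between 4.91 and 4.98, a gap of 0.8703 of the range. Both gaps exceed Dixon's 95% critical value for 4 samples. The 6 genes gave 24 groups to compare with it, and chance exceeds it in about 1 in 20 groups.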

How the results depend on the processing

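The 6 genes in 5 comparisons gave 714 values under other settings, of which 690 kept their direction and side of the threshold, 9 passed newly, 0 lost a call and 15 changed sign, all of them among differences that had not passed. The 7 calls between subsets (S1pr1, Ccr7 and Cd44 in both genotypes, Klf2 in WT) passed in all 24 settings each. With the replicate number as a block, 1 of the 6 genes passed in effector KO against WT (S1pr1), and the calls over all genes were 29 there and 104 in memory KO against WT. The labels do not say that equal numbers pair the samples, and the main fit did not pair them. Deviations of effector and memory samples of one genotype and number correlated at 0.0178 to 0.2392, with 6 of 8 pairs over 0.1, and those of KO and WT at −0.0322 to 0.1381, with 2 of 8. For 7 of 8 effector arrays the closest of the 4 memory arrays of the genotype had the same number. Fitting only the arrays compared, genes called were 4 and 7 for KO against WT in effector and memory cells and 1320 and 600 between subsets in WT and KO. Array weights gave 42 in memory KO against WT and 1644 between subsets in WT, and turned S1pr5 to −0.18 in the interaction and −0.55 between subsets in KO. Quantile normalization turned Cd8b1 to 0.0072 in effector KO against WT. Leaving out each array in turn, members called in effector KO against WT ranged from 0 to 1 and genes called from 4 to 42. Genes called ranged from 11 to 249 in memory KO against WT, from 0 to 5 for the interaction, from 359 to 1037 between subsets in WT and from 961 to 2044 in KO. In the same refits, differences in effector KO against WT ran from −0.2802 to 0.0312 for Ccr7 and from −0.0841 to 0.0922 for Cd8b1. Interactions ran from −0.10 to 0.36 for S1pr4 and from −0.12 to 0.88 for S1pr5, and subset differences in KO from −0.30 to 0.10 for S1pr4 and from −0.50 to 0.50 for S1pr5. Where a call or direction moved, the cause was not tested.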
